A study of Gossypium hirsutum and Gossypium barbadense with 16 samples.

Results

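Cotton fibers are single cells that grow out of the ovule epidermis around the day of flowering, much as trichomes grow out of the leaf epidermis. GhMYB25 is a MIXTA-type R2R3 MYB transcription factor, the cotton homolog of Arabidopsis MYB106, which acts in trichome development and in the formation of the cuticle, and in cotton GhMYB25 is known as a regulator of early fiber development. It is a different gene from GhMYB25-like, which the study links to the fiberless trait of the mutant line and which was not analysed here. The GhMYB25 genes described here were the 2 genes that the study assigned to MYB106, Gohir.1Z049716 and Gohir.D04G191100, taken by their identifiers from a table of 52514 genes paired between Gossypium hirsutum and Gossypium barbadense (orthologs). Both had a value above 0 in at least 1 library and were therefore among the 42627 orthologs tested. The name Gohir.D04G191100 places that gene on chromosome D04, whereas Gohir.1Z049716 carries no chromosome in its name.

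Messenger RNA was sequenced from cells cut out of ovule sections by laser-capture microdissection, at 0 or 2 days post anthesis (DPA), in 16 libraries that formed 8 groups of 2 biological replicates. Epidermal cells of GhMD17, a naturally occurring fiberless mutant in the Gossypium hirsutum background, were collected at 0 and 2 DPA. Fiber cells at 2 DPA and epidermal cells at 0 and 2 DPA were collected from the fiber-bearing lines Gb3-79 (Gossypium barbadense) and GhTM-1 (Gossypium hirsutum), called wild type below. In GhMD17 at both stages and in wild-type ovules at 0 DPA the outermost epidermal layer was cut, whereas at 2 DPA the protruding fibers of the wild-type lines were cut first and the epidermal cells under them second, so stage and fiber removal cannot be told apart in wild-type epidermis. Reads of Gb3-79 were placed on the Gossypium barbadense genome and those of the other lines on that of Gossypium hirsutum, so line and reference genome cannot be told apart in comparisons with Gb3-79. Genotype, tissue and stage were the only differences that the labels gave, with no treatment in any group.

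Expression was given as FPKM, the fragments of a gene scaled for its length and for the depth of the library, so levels of different genes can be set side by side. The FPKM of all orthologs summed to between 521813 and 661014 per library, and 25689 to 29504 orthologs were over 1 FPKM. The files hold no read counts, and the depth behind a value is unknown. No marker check of the cut cells was made, because none of the 52514 identifiers was found in the gene table at hand (0 matched). In such bulk samples, fewer cells of a type and less RNA per cell cannot be told apart. Differences were tested with limma on log2(FPKM + 1) in a fit of all 16 libraries, and a difference was called at a Benjamini-Hochberg adjusted p under 0.05 over all orthologs tested. On that scale the change of a gene near 0 is understated.

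Both GhMYB25 genes were abundant in every wild-type library, low in GhMD17 at 2 DPA and close to 0 in GhMD17 at 0 DPA. In GhMD17 epidermal cells at 2 DPA, Gohir.1Z049716 had 8.51 and 8.27 FPKM, and at 0 DPA it was listed at 0 in one library and had 0.306 FPKM in the other. In Gb3-79, Gohir.1Z049716 had 153 and 144 FPKM in fibers, 74.3 and 64.2 FPKM in epidermal cells at 2 DPA, and 100.4 and 97.4 FPKM in epidermal cells at 0 DPA. In GhTM-1 it had 196 and 199 FPKM in fibers, 116 and 115 FPKM in epidermal cells at 2 DPA, and 133 and 163 FPKM in epidermal cells at 0 DPA. Fibers were thus the highest tissue in each wild-type line, and every wild-type library was above every GhMD17 library.

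Gohir.D04G191100 showed a similar order at a higher level. In GhMD17 epidermal cells it had 12.1 and 14.4 FPKM at 2 DPA, and 0.196 and 1.30 FPKM at 0 DPA. In Gb3-79 it had 221 and 242 FPKM in fibers, 87.5 and 86.9 FPKM in epidermal cells at 2 DPA, and 133 and 161 FPKM in epidermal cells at 0 DPA. In GhTM-1 it had 281 and 259.9 FPKM in fibers, 157 and 154 FPKM in epidermal cells at 2 DPA, and 211 and 271 FPKM in epidermal cells at 0 DPA. Its GhTM-1 fiber and 0 DPA epidermal libraries overlapped, as they did not for Gohir.1Z049716.

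**Figure D1:**
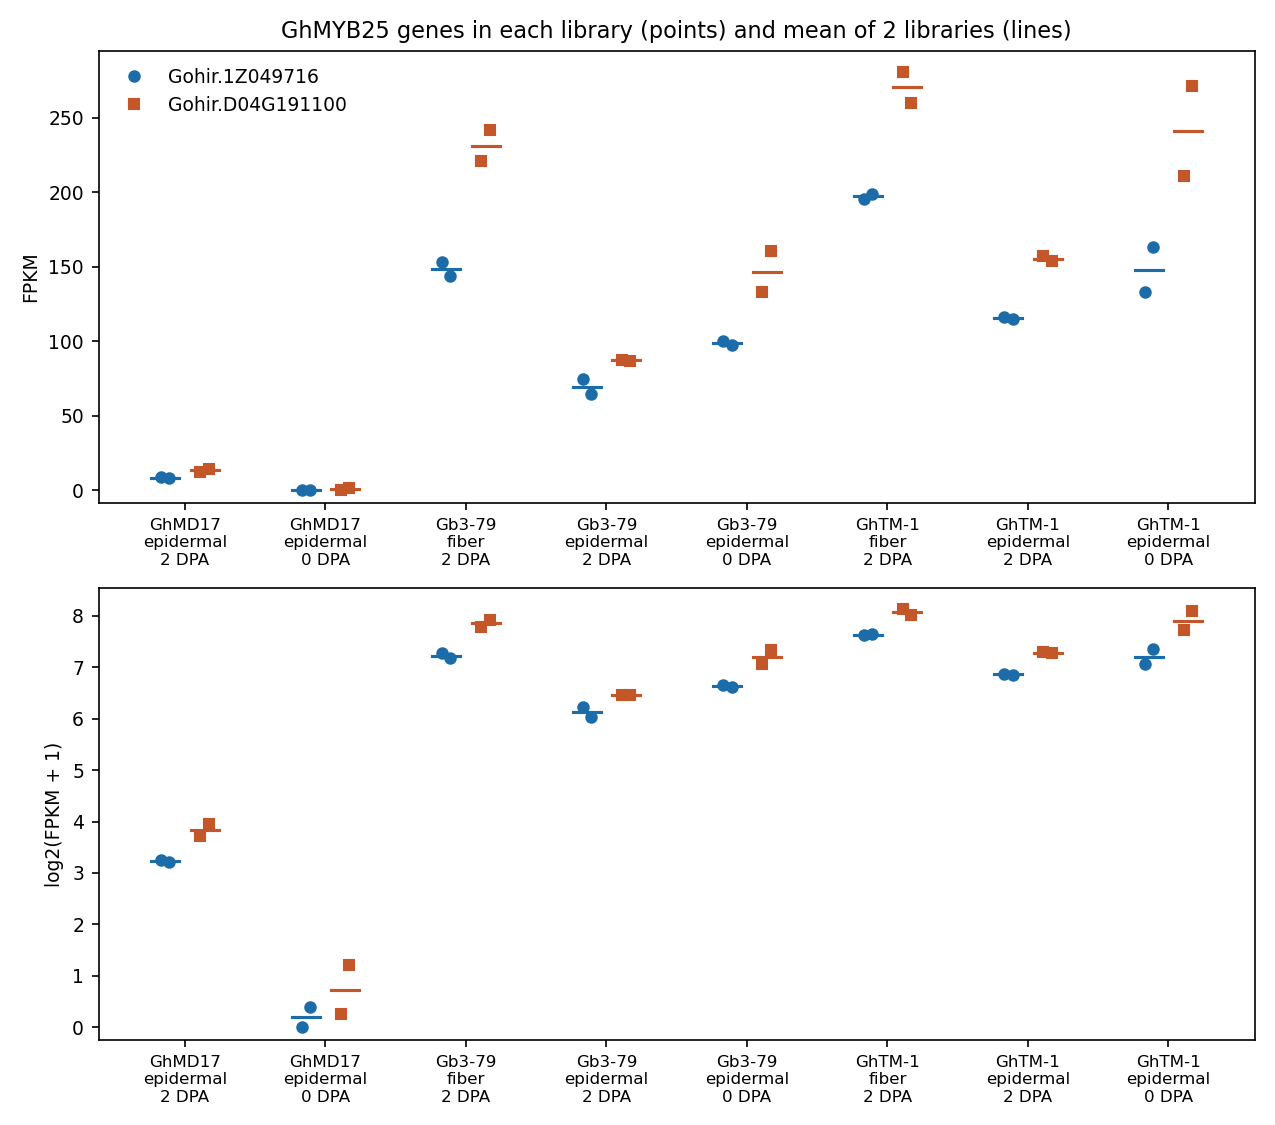
FPKM (upper panel) and log2(FPKM + 1) (lower panel) of Gohir.1Z049716 (circles) and Gohir.D04G191100 (squares) in the 16 libraries, with 1 point per library and a line at the mean of the 2 libraries of a group. Wild-type libraries lie between 64.2 and 281 FPKM, GhMD17 libraries at 2 DPA between 8.27 and 14.4 FPKM, and GhMD17 libraries at 0 DPA at or under 1.30 FPKM.

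Ordered by group mean, Gohir.1Z049716 was highest in GhTM-1 fibers (197 ± 2.15 FPKM, SD, n = 2), followed by Gb3-79 fibers (149 ± 6.58 FPKM) and GhTM-1 epidermal cells at 0 DPA (148 ± 21.5 FPKM), whose libraries overlapped. GhTM-1 epidermal cells at 2 DPA (115 ± 0.830 FPKM), Gb3-79 epidermal cells at 0 DPA (98.9 ± 2.12 FPKM) and Gb3-79 epidermal cells at 2 DPA (69.3 ± 7.10 FPKM) came next, with no overlap between neighbours. For Gohir.D04G191100 the first 3 places were held by GhTM-1 fibers (270.5 ± 14.95 FPKM), GhTM-1 epidermal cells at 0 DPA (241 ± 42.7 FPKM) and Gb3-79 fibers (231 ± 14.6 FPKM), and each of these groups overlapped the next. GhTM-1 epidermal cells at 2 DPA (155 ± 2.37 FPKM) and Gb3-79 epidermal cells at 0 DPA (147 ± 19.6 FPKM) also overlapped, and Gb3-79 epidermal cells at 2 DPA (87.2 ± 0.411 FPKM) stood below them. Both genes ended with GhMD17 at 2 DPA (8.39 ± 0.174 FPKM for Gohir.1Z049716 and 13.2 ± 1.63 FPKM for Gohir.D04G191100) and GhMD17 at 0 DPA.

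Set against the other orthologs of the same library, the GhMYB25 genes ranked between place 252 and place 1764 from the top of 52514 in the wild-type libraries. In GhMD17 they ranked between places 7589 and 12697 at 2 DPA and between places 27367 and 37644 at 0 DPA. In the wild-type samples they were therefore among the more abundant transcripts at both stages and in both tissues as labelled. The paper treats wild-type epidermal samples at 0 DPA as holding fiber cell initials. How much of the level in epidermal samples comes from fiber cells was not tested.

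The study included GhMD17 to ask which genes differ where no fiber forms. At 0 DPA both GhMYB25 genes were lower in GhMD17 than in either wild-type line. Against GhTM-1, the log2 difference was -7.02 (SE 0.15, adjusted p = 3.91e-09, limma) for Gohir.1Z049716 and -7.18 (SE 0.25, adjusted p = 1.76e-07) for Gohir.D04G191100. Against Gb3-79, it was -6.45 (adjusted p = 3.20e-09) for Gohir.1Z049716 and -6.47 (adjusted p = 1.01e-07) for Gohir.D04G191100. Ordered by p over all 42627 orthologs, Gohir.1Z049716 took place 1 and Gohir.D04G191100 place 5 in the comparison with GhTM-1. In the comparison with Gb3-79, Gohir.1Z049716 took place 3 and Gohir.D04G191100 place 26. Across all orthologs, 2.96% were called lower and 1.86% higher in GhMD17 than in GhTM-1, and 7.96% lower and 7.12% higher than in Gb3-79. Both wild-type comparisons used the same GhMD17 libraries. The order of the genes depended on the pseudocount, since with 0.1 the log2 difference from GhTM-1 was -9.51 for Gohir.1Z049716 and -8.54 for Gohir.D04G191100. The GhMD17 mean of Gohir.D04G191100 (0.749 ± 0.782 FPKM, n = 2) was 0.311% of the GhTM-1 mean and rested mostly on 1 of 2 libraries, and no fold is given for Gohir.1Z049716, which was listed at 0 in one of them.

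At 2 DPA the gap to GhMD17 was smaller but still present for both genes. Wild-type epidermal cells of this stage were cut after fibers had been removed, those of GhMD17 were not, and the part of this in the gap was not tested. The log2 difference of GhMD17 epidermal cells from GhTM-1 epidermal cells was -3.63 (SE 0.15, adjusted p = 1.39e-06, limma) for Gohir.1Z049716 and -3.46 (SE 0.25, adjusted p = 3.97e-05) for Gohir.D04G191100, and the GhMD17 mean was 7.27% of the GhTM-1 mean for Gohir.1Z049716 and 8.52% for Gohir.D04G191100. From Gb3-79 epidermal cells it was -2.90 (adjusted p = 1.22e-06) for Gohir.1Z049716 and -2.63 (adjusted p = 8.81e-05) for Gohir.D04G191100. Of all orthologs, 2.77% were lower and 2.07% higher in GhMD17 than in GhTM-1 at this stage, and 6.02% lower and 5% higher than in Gb3-79.

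The same 2 DPA libraries of GhMD17 were also compared with wild-type fibers, the tissue that the mutant does not form. From GhTM-1 fibers, GhMD17 epidermal cells differed by -4.40 on the log2 scale (SE 0.15, adjusted p = 1.38e-07, limma) for Gohir.1Z049716, with means 23.5-fold apart, and by -4.26 (SE 0.25, adjusted p = 2.36e-06) for Gohir.D04G191100, with means 20.4-fold apart. From Gb3-79 fibers, the log2 difference was -3.99 (adjusted p = 9.92e-08) for Gohir.1Z049716, with means 17.7-fold apart, and -4.03 (adjusted p = 2.40e-06) for Gohir.D04G191100, with means 17.5-fold apart. Of all orthologs, 7.94% were lower and 18.3% higher in GhMD17 epidermal cells than in GhTM-1 fibers, and 9.68% lower and 20.2% higher than in Gb3-79 fibers. The study picked its MYB genes for their change in fibers on these libraries, so the fiber values are not independent evidence of a direction.

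Within each wild-type line, fiber and epidermal cells at 2 DPA were compared to ask what sets the fiber cell apart. Gohir.1Z049716 averaged 197 FPKM in GhTM-1 fibers and 115 FPKM in GhTM-1 epidermal cells, 1.71-fold higher (log2 difference 0.77, SE 0.15, adjusted p = 0.0124, limma). Gohir.D04G191100 averaged 270.5 FPKM in GhTM-1 fibers and 155 FPKM in GhTM-1 epidermal cells, 1.74-fold apart, and this did not pass the test (log2 difference 0.79, SE 0.25, 95% interval 0.24 to 1.35, adjusted p = 0.0894). The SE of a gene was taken over all 8 groups, so it also holds the spread of libraries not compared here. The log2(FPKM + 1) of Gohir.D04G191100 was 0.26 and 1.20 in GhMD17 at 0 DPA. It was 7.30 and 7.27 in GhTM-1 epidermal cells at 2 DPA and 8.14 and 8.03 in GhTM-1 fibers. A call for Gohir.1Z049716 alone therefore shows no difference between the genes, which was not tested in this line. The libraries of the groups overlapped for neither gene. With 2 libraries per group such separation is common by chance, and its share of all orthologs was not counted. Of all orthologs, 1.17% were called higher and 5.94% lower in GhTM-1 fibers.

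In Gb3-79 both GhMYB25 genes were higher in fibers. Gohir.1Z049716 averaged 149 FPKM in Gb3-79 fibers and 69.3 FPKM in Gb3-79 epidermal cells, 2.15-fold higher (log2 difference 1.10, SE 0.15, adjusted p = 0.000940, limma). Gohir.D04G191100 averaged 231 FPKM in Gb3-79 fibers and 87.2 FPKM in Gb3-79 epidermal cells, 2.66-fold higher (log2 difference 1.40, SE 0.25, adjusted p = 0.00452). Of all orthologs, 3.62% were called higher and 11.6% lower in Gb3-79 fibers. The step between fiber and epidermis was not shown to differ between the lines. Gb3-79 minus GhTM-1, it differed by 0.33 on the log2 scale for Gohir.1Z049716 (95% interval -0.14 to 0.79, adjusted p = 0.746) and by 0.60 for Gohir.D04G191100 (95% interval -0.19 to 1.39, adjusted p = 0.728), where 0.312% of all orthologs were called in either direction.

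The fiber calls within the lines were less firm than those against GhMD17. They rest on an SE shared by all 8 groups, which takes in the GhMD17 libraries near 0. With a pseudocount of 0.1 that SE rose from 0.15 to 0.44 for Gohir.1Z049716 and from 0.25 to 0.49 for Gohir.D04G191100. The called fiber differences hardly moved, at 0.77 and 1.10 for Gohir.1Z049716 and 1.41 for Gohir.D04G191100. The libraries near or below these pseudocounts were those of GhMD17 at 0 DPA. They had 0 and 0.306 FPKM for Gohir.1Z049716, and 0.196 and 1.30 FPKM for Gohir.D04G191100. The lowest wild-type library had 64.2 FPKM for Gohir.1Z049716 and 86.9 FPKM for Gohir.D04G191100. The share of each group in the rise of the SE was not tested. The GhTM-1 call of Gohir.1Z049716 was lost without GhTM-1 epidermal 2 DPA replicate 2 (adjusted p = 0.0543, limma), without GhTM-1 fiber replicate 1 (adjusted p = 0.0549) and without GhTM-1 fiber replicate 2 (adjusted p = 0.0645), and all 3 fiber calls were lost with a pseudocount of 0.1 in place of 1, at adjusted p between 0.0772 and 0.354.

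**Figure D2:**
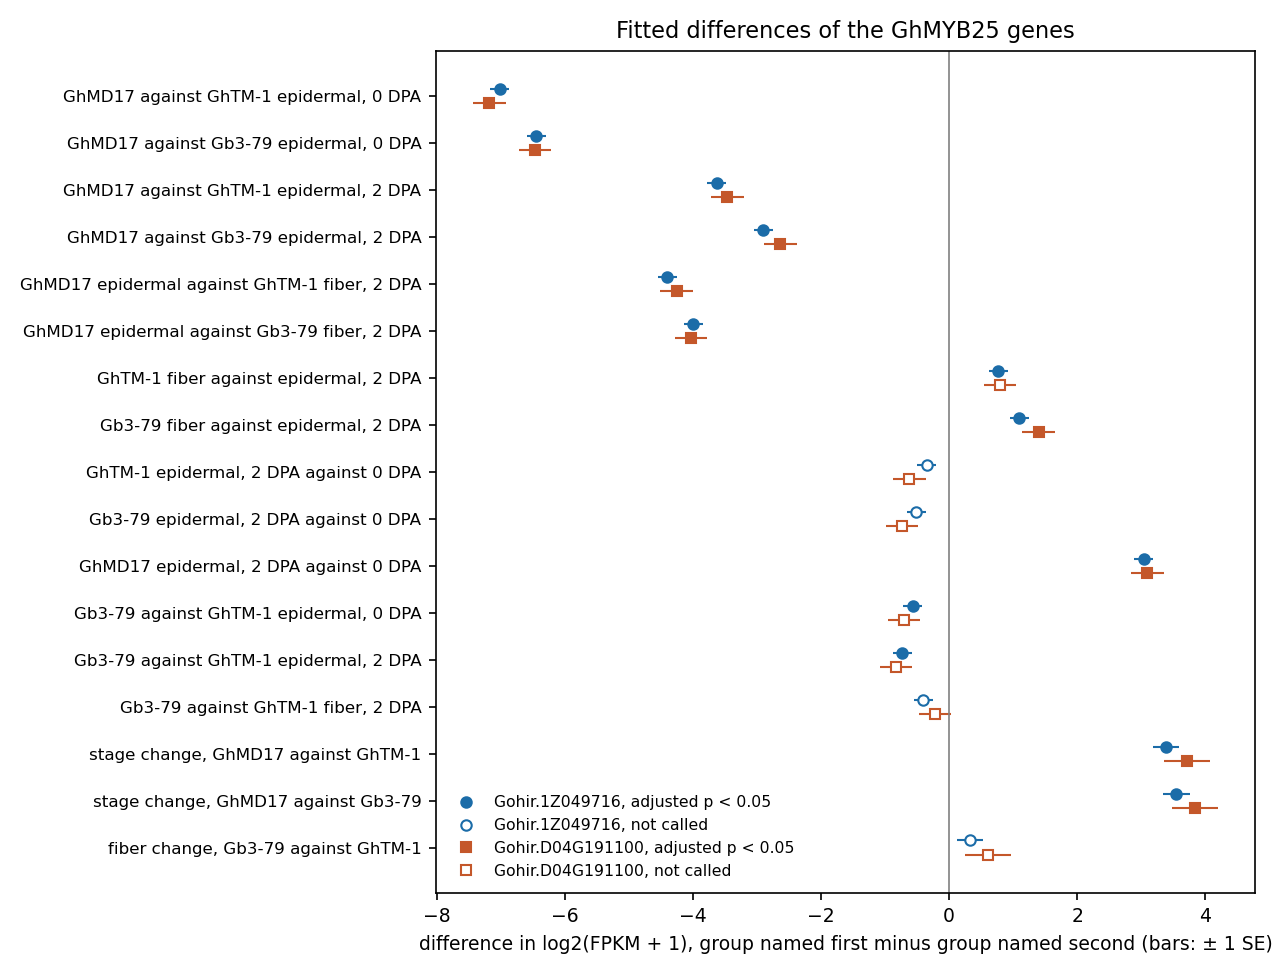
Differences in log2(FPKM + 1) of Gohir.1Z049716 (circles) and Gohir.D04G191100 (squares) in each comparison, group named first minus group named second, with bars of 1 SE from limma and filled symbols at adjusted p under 0.05. The 6 comparisons of GhMD17 with wild type lie between -7.18 and -2.63, and GhMD17 at 2 DPA against 0 DPA lies at 3.04 and 3.10.

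Between 0 and 2 DPA the GhMYB25 genes rose in GhMD17. Gohir.1Z049716 had 8.51 and 8.27 FPKM in GhMD17 at 2 DPA, against a value listed at 0 and 0.306 FPKM in GhMD17 at 0 DPA (log2 difference 3.04, SE 0.15, adjusted p = 7.85e-06, limma). Gohir.D04G191100 had 12.1 and 14.4 FPKM at 2 DPA, against 0.196 and 1.30 FPKM at 0 DPA (log2 difference 3.10, SE 0.25, adjusted p = 0.000384). By p, Gohir.1Z049716 took place 3 and Gohir.D04G191100 place 13 among all orthologs. Of all orthologs, 0.425% were called higher and 0.253% lower at 2 DPA in the mutant. With a pseudocount of 0.1 the log2 difference was 5.40 for Gohir.1Z049716 and 4.37 for Gohir.D04G191100, both still called. When only the 4 GhMD17 libraries were fitted, neither difference passed the test (adjusted p = 0.118 for Gohir.1Z049716 and 0.122 for Gohir.D04G191100).

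In wild-type epidermis both genes had lower means at 2 DPA than at 0 DPA, and no such difference passed the test. In GhTM-1 the log2 difference, 2 DPA minus 0 DPA, was -0.35 for Gohir.1Z049716 (95% interval -0.68 to -0.02, adjusted p = 0.408, limma) and -0.62 for Gohir.D04G191100 (95% interval -1.18 to -0.06, adjusted p = 0.377). In Gb3-79 it was -0.51 for Gohir.1Z049716 (95% interval -0.84 to -0.18, adjusted p = 0.196) and -0.74 for Gohir.D04G191100 (95% interval -1.30 to -0.18, adjusted p = 0.300). For both genes in both lines, each 2 DPA library was below each 0 DPA library. Such a separation is common by chance with 2 libraries per group, and its share of all orthologs was not counted. Of all orthologs, 1.35% were called in either direction between stages in GhTM-1 and 0.898% in Gb3-79.

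The stage change itself differed between the mutant and the wild-type lines. For Gohir.1Z049716 the change in GhMD17 exceeded that in Gb3-79 by 3.55 (SE 0.21, adjusted p = 4.92e-05, limma) and that in GhTM-1 by 3.39 (SE 0.21, adjusted p = 0.000107) on the log2 scale. For Gohir.D04G191100 it exceeded the change in Gb3-79 by 3.83 (SE 0.36, adjusted p = 0.00125) and that in GhTM-1 by 3.72 (SE 0.36, adjusted p = 0.00209). In these tests 0.375% (against Gb3-79) and 0.298% (against GhTM-1) of all orthologs were called in either direction, and the same GhMD17 libraries entered both. With a pseudocount of 0.1 these 4 differences lay between 4.99 and 5.91 and were larger for Gohir.1Z049716, and all were called. Even after this change, GhMD17 at 2 DPA stayed below every wild-type library. When only the groups compared were fitted, the calls of Gohir.D04G191100 were lost (adjusted p = 0.0774 against Gb3-79 and 0.0898 against GhTM-1).

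The wild-type lines belong to different cultivated species. The paper picked its lines because their fibers differ, with lint and fuzz in GhTM-1 and almost only lint in Gb3-79. The FPKM of Gb3-79 are those of its own genes, and the values of Gohir.1Z049716 matched the row of Gobar.A04G175100, and those of Gohir.D04G191100 the row of Gobar.D04G222300, each as the single match among 74559 rows within 0.001 FPKM. Their names place them on chromosomes A04 and D04 of Gossypium barbadense. Gohir.1Z049716 was lower in Gb3-79 epidermal cells than in GhTM-1 epidermal cells at 0 DPA (log2 difference -0.57, SE 0.15, adjusted p = 0.0364, limma) and at 2 DPA (log2 difference -0.73, SE 0.15, adjusted p = 0.0109). Its Gb3-79 means were 66.9% of the GhTM-1 mean at 0 DPA and 60.0% at 2 DPA. In fibers its difference did not pass the test (log2 difference -0.41, 95% interval -0.73 to -0.08, adjusted p = 0.149). Of all orthologs, 3.97% were called lower in Gb3-79 epidermal cells at 0 DPA, 3.6% in those at 2 DPA and 3.29% in Gb3-79 fibers.

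For Gohir.D04G191100 no difference between the lines passed the test in the fit of all 16 libraries and all orthologs tested. Its SE (0.25) again takes in the spread of the GhMD17 libraries at 0 DPA, which are not compared here. The log2 difference, Gb3-79 minus GhTM-1, was -0.71 in epidermal cells at 0 DPA (95% interval -1.27 to -0.15, adjusted p = 0.116, limma), -0.83 at 2 DPA (95% interval -1.38 to -0.27, adjusted p = 0.0691) and -0.22 in fibers (95% interval -0.78 to 0.33, adjusted p = 0.773). Both GhMYB25 genes thus had lower means in Gb3-79 in all 3 settings, with no overlap of libraries. With 2 libraries per group such separation is common by chance, and its share of all orthologs was not counted. The call was made for Gohir.1Z049716 in epidermal cells alone, and the difference between the genes was not tested for each setting. Gohir.D04G191100 was called at 2 DPA with the replicate number as a block (adjusted p = 0.0450) and among orthologs with a mean over 1 FPKM (adjusted p = 0.0453). Of the calls of Gohir.1Z049716, the one at 0 DPA was lost without GhTM-1 epidermal 0 DPA replicate 2 (log2 difference -0.42, adjusted p = 0.178), without Gb3-79 epidermal 0 DPA replicate 1 (adjusted p = 0.101) and without replicate 2 of that group (adjusted p = 0.129). The one at 2 DPA was lost without GhTM-1 epidermal 2 DPA replicate 1 (adjusted p = 0.0532) and without Gb3-79 epidermal 2 DPA replicate 2 (adjusted p = 0.0719). Both were also lost with a pseudocount of 0.1 or a fit of the groups compared alone.

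In all 16 libraries Gohir.D04G191100 had more FPKM than Gohir.1Z049716. Within a library the level of Gohir.D04G191100 was 1.42 and 1.74 times that of Gohir.1Z049716 in GhMD17 at 2 DPA, and between 1.18 and 1.68 times in the 12 wild-type libraries. The GhMD17 libraries at 0 DPA were too close to 0 for a ratio. Only uniquely placed reads were counted by the authors, so reads that fit both genes alike were left out, and how many were lost from each gene was not tested. The log2 ratio averaged 0.51 in Gb3-79 and 0.53 in GhTM-1 (difference -0.02, two-sided exact permutation test within tissue and stage, p = 0.889, n = 6 each, smallest possible p 0.00926). It averaged 0.55 in wild-type fibers and 0.38 in wild-type epidermal cells at 2 DPA (difference 0.16, two-sided exact permutation test within line, p = 0.167, n = 4 each), where the smallest p the design allows is 0.0556. Adjusted over these 2 comparisons, the p-values were 0.889 and 0.333, and the sign of the difference between the lines turned when single libraries were left out (-0.06 to 0.04).

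**Figure D3:**
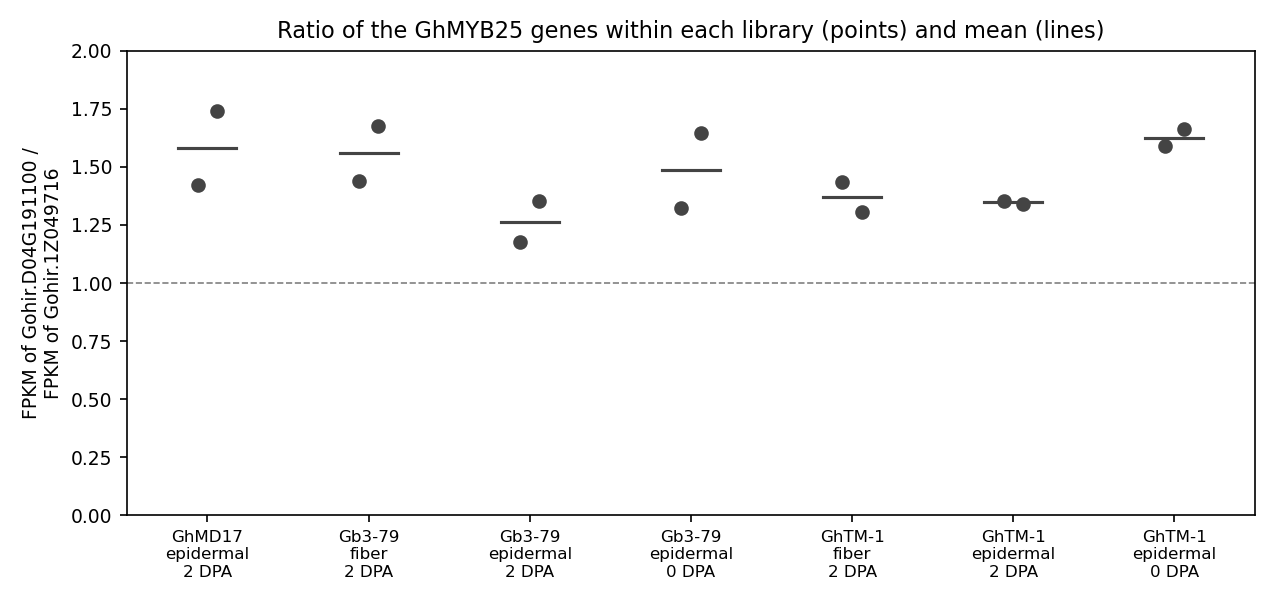
FPKM of Gohir.D04G191100 divided by FPKM of Gohir.1Z049716 within each library (points) and the mean of the 2 libraries of a group (lines), with GhMD17 at 0 DPA left out. The dashed line marks equal levels, and the points lie between 1.18 and 1.74.

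The GhMYB25 genes were set beside 18 other cotton MYB genes from the MYB tree of the study, most of which it had also chosen on these libraries. MYB proteins of this kind bind DNA and regulate processes that include the fate and growth of epidermal cells, and no function is given here for the single members, which the files identify by number only. The 18 genes were less abundant, with a median of 8.04 FPKM and a highest value of 43.4 FPKM over the 4 GhMD17 libraries, and a median of 7.83 FPKM and a highest value of 40.2 FPKM over the 12 wild-type libraries. In the wild-type libraries the GhMYB25 genes were above all of these values, and in GhMD17 at 0 DPA they were well under the median.

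At 0 DPA, 3 of the 18 were called lower and 2 higher in GhMD17 than in GhTM-1, where 2.96% of all orthologs were lower and 1.86% higher. Against Gb3-79, 4 were called lower and 7 higher in GhMD17, where 7.96% of all orthologs were lower and 7.12% higher. Their median log2 difference was 0.47 against GhTM-1, where that of all orthologs was 0.02, and 0.69 against Gb3-79, where that of all orthologs was 0.01. The lowest was Gohir.D01G158500, with 1.52 and 0.261 FPKM in GhMD17 at 0 DPA, against 13.5 and 25.8 FPKM in GhTM-1 at 0 DPA (log2 difference -3.47, SE 0.41, adjusted p = 0.000682, limma). The highest was Gohir.D07G148500, with 13.7 and 13.1 FPKM in GhMD17 at 0 DPA, against 0.626 and 6.34 FPKM in GhTM-1 at 0 DPA (log2 difference 2.06, adjusted p = 0.0761), which did not pass the test. The GhMYB25 genes were at -7.02 and -7.18, which the 18 could not have reached, since a fall to 0 FPKM in GhMD17 would have put the most abundant of them no lower than -4.66 against GhTM-1 and -4.12 against Gb3-79 on this scale. At 2 DPA, 3 of the 18 were called lower and 0 higher in GhMD17 than in GhTM-1 epidermal cells by limma (all orthologs 2.77% and 2.07%). At an unadjusted p under 0.05 by limma, 5 of the 18 were lower and 5 higher. Against Gb3-79 epidermal cells, 5 were called lower and 4 higher in GhMD17 (all orthologs 6.02% and 5%).

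Between GhMD17 epidermal cells and fibers the list divided in both directions. Of the 18, 6 were called lower and 10 higher in GhMD17 epidermal cells than in GhTM-1 fibers (median log2 difference 1.17, all orthologs 0.22). Of all orthologs, 7.94% were lower and 18.3% higher. Against Gb3-79 fibers, 7 of the 18 were lower and 9 higher (median 0.92, all orthologs 0.19), where 9.68% of all orthologs were lower and 20.2% higher. Gohir.D01G158500 had 2.66 and 1.38 FPKM in GhMD17 epidermal cells at 2 DPA, against 24.3 and 23.2 FPKM in GhTM-1 fibers. Gohir.D07G148500 had 10.5 and 13.6 FPKM in GhMD17 epidermal cells at 2 DPA, against 0.121 and 0.955 FPKM in GhTM-1 fibers. One thus moved with the GhMYB25 genes and the other against them.

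Within the wild-type lines, 0 of the 18 were called higher and 5 lower in GhTM-1 fibers than in GhTM-1 epidermal cells by limma. Of all orthologs, 1.17% were called higher and 5.94% lower. At an unadjusted p under 0.05 by limma, 4 of the 18 were higher and 8 lower. Their median log2 difference was -0.37, where that of all orthologs was -0.09. In Gb3-79, 2 of the 18 were called higher and 7 lower in fibers than in epidermal cells (median 0.21, all orthologs -0.11). Of all orthologs, 3.62% were called higher there and 11.6% lower. Between the stages in GhMD17 0 of the 18 were called in either direction by limma, where 0.425% of all orthologs were called higher and 0.253% lower. At an unadjusted p under 0.05 by limma, 1 of the 18 was higher and 1 lower. Their log2 differences ran from -0.98 to 0.81, where the GhMYB25 genes were at 3.04 and 3.10. Gohir.D01G158500, which was also low in GhMD17, had 2.66 and 1.38 FPKM in GhMD17 at 2 DPA and 1.52 and 0.261 FPKM in GhMD17 at 0 DPA, and these libraries overlapped.

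**Figure D4:**
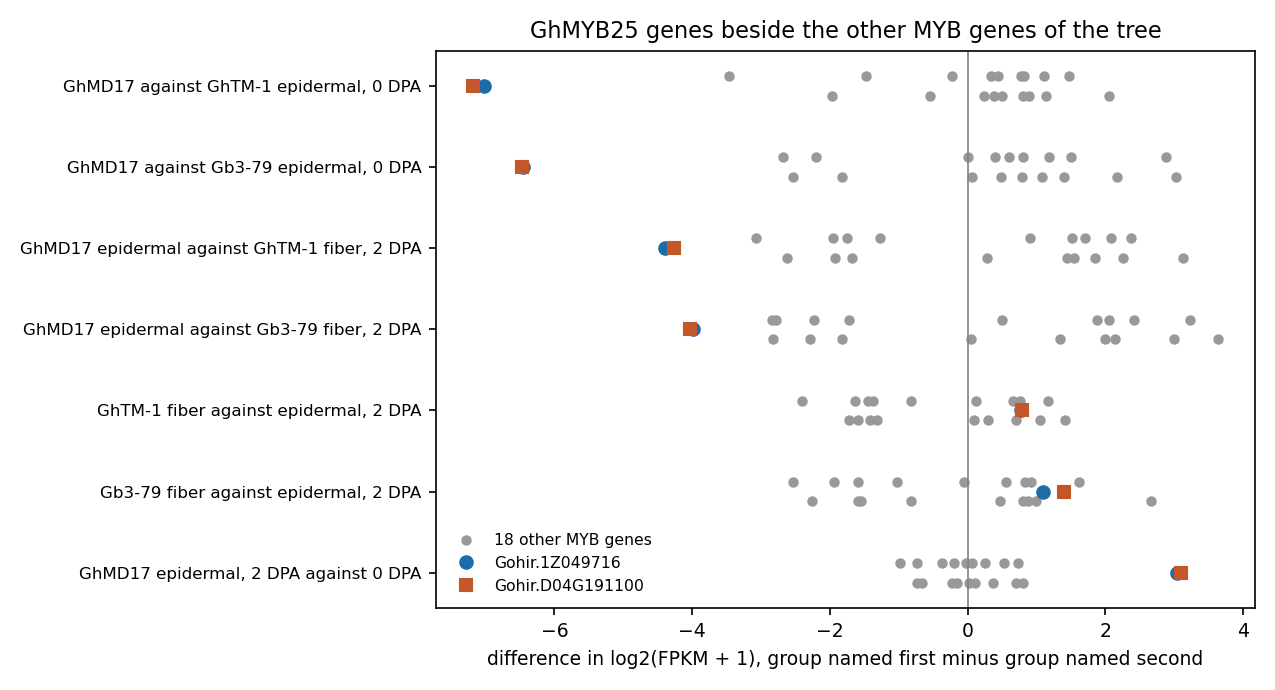
Differences in log2(FPKM + 1), group named first minus group named second, of the GhMYB25 genes (coloured) and of 18 other MYB genes (grey) in 7 comparisons. The GhMYB25 genes lie above all 18 between the stages in GhMD17. Between fiber and epidermal cells of the same wild-type line they lie within the range of the 18. Between GhMD17 epidermal cells and GhTM-1 fibers they lie below all 18, at -4.40 and -4.26 against a lowest of -3.07. For Gb3-79 fibers they lie at -3.99 and -4.03 against a lowest of -2.84. The levels of the 18 in wild type limit how far they can lie below 0. That limit is -4.66 against GhTM-1 and -4.12 against Gb3-79 at 0 DPA, and -4.64 against GhTM-1 fibers and -4.90 against Gb3-79 fibers.

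Across the 16 libraries the log2(FPKM + 1) of the GhMYB25 genes had a Pearson r of 0.997 and a Spearman rho of 0.968, of which much lies in the gap between GhMD17 and wild type. Over the 12 wild-type libraries alone r was 0.966 and rho 0.930. These values describe libraries that share group, depth and processing. Among 23333 orthologs with a group mean over 5 FPKM, the highest Pearson r with the mean of the GhMYB25 genes was that of Gohir.D11G043200 (r 0.991, rho 0.909, 16 libraries), followed by Gohir.D13G192900 (r 0.983, rho 0.876), and 39 orthologs had r over 0.95. By Spearman rho, places 147.5 and 284.5 fell to these genes, and another ortholog led. Over the 12 wild-type libraries alone, r was 0.77 for Gohir.D11G043200 and 0.75 for Gohir.D13G192900.

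Gohir.D11G043200 had 13.3 and 15.98 FPKM in GhMD17 at 2 DPA, and at 0 DPA it was listed at 0 in one GhMD17 library and had 0.661 FPKM in the other. In wild type its group means lay between 158 FPKM (GhTM-1 epidermal cells at 2 DPA) and 268 FPKM (GhTM-1 fibers). Gohir.D13G192900 was likewise low in the mutant, with 1.92 and 2.11 FPKM in GhMD17 at 2 DPA and 0.0103 and 0.134 FPKM in GhMD17 at 0 DPA. The lowest Pearson r was that of Gohir.A03G162300 (r -0.962, rho -0.756), followed by Gohir.D13G006000 (r -0.954, rho -0.580). Over the 12 wild-type libraries r was only -0.38 for Gohir.A03G162300 and was 0.23, of the other sign, for Gohir.D13G006000, and another ortholog was lowest by Spearman rho. Gohir.A03G162300 had 3.25 and 2.73 FPKM in GhMD17 at 2 DPA and 6.79 and 7.02 FPKM in GhMD17 at 0 DPA, and was under 1 FPKM in every wild-type library. No name or function is paired with these 4 identifiers here.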

How the data were processed

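The study's methods state that reads were mapped with TopHat2 2.1.1, that uniquely placed reads were kept and that Cufflinks 2.2.1 gave FPKM per gene. The deposited FPKM of orthologs were used as the authors gave them. The members and the MYB list were chosen with earlier results of these data known. Orthologs above 0 in any library were tested with limma 3.58.1 (R 4.3.3) on log2(FPKM + 1), with 8 group means, a trended variance prior and Benjamini-Hochberg adjustment. GhMD17 against wild type is given as GhMD17 minus wild type. The named genes were the GhMYB25 genes, the highest and lowest of the MYB list in the comparison with GhTM-1 at 0 DPA, and the 2 orthologs most and least correlated with the members over 16 libraries. Alternatives were a pseudocount of 0.1, no filter, a mean over 1 FPKM, median-ratio scaling, the groups compared alone, limits on P, FPKM and fold as in the study, a replicate block and leaving out each library. The script was tested on simulated data.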

Additional observations from a re-analysis of the deposited data

Results flagged for a closer look

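The change between 0 and 2 DPA differed between GhMD17 and each wild-type line, by a test of the difference of the changes in limma. On the log2(FPKM + 1) scale, the GhMD17 change of Gohir.1Z049716 exceeded that of Gb3-79 by 3.55 and that of GhTM-1 by 3.39. The GhMD17 change of Gohir.D04G191100 exceeded that of Gb3-79 by 3.83 and that of GhTM-1 by 3.72. The wild-type epidermal cells at 2 DPA were cut after fibers had been removed, and those of GhMD17 were not, and the part of this in the difference was not tested.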

How the results depend on the processing

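No called value changed sign under any alternative. Every call of GhMD17 against wild type kept its side of the threshold under all of them, as log2 differences between -7.65 and -2.52 with 1 library left out and between -9.51 and -2.71 with a pseudocount of 0.1. That pseudocount also moved the GhMD17 stage change to 5.40 for Gohir.1Z049716 and 4.37 for Gohir.D04G191100, and its difference from the wild-type changes to between 4.99 and 5.91. With a pseudocount of 0.1 the differences of Gohir.1Z049716 were no longer called in fiber against epidermis in GhTM-1 (0.77) and Gb3-79 (1.10) or in Gb3-79 against GhTM-1 epidermis at 0 DPA (-0.57) and 2 DPA (-0.74), nor was that of Gohir.D04G191100 in Gb3-79 fiber against epidermis (1.41). With the groups compared alone, calls were lost for Gohir.1Z049716 in GhTM-1 fiber against epidermis (0.77), in GhMD17 at 2 against 0 DPA (3.04) and in Gb3-79 against GhTM-1 epidermis at 0 DPA (-0.57) and 2 DPA (-0.73), and for Gohir.D04G191100 in GhMD17 at 2 against 0 DPA (3.10) and in its stage change against GhTM-1 (3.72) and Gb3-79 (3.83). Limits of P under 0.01, over 5 FPKM and over 1.5-fold, in place of the adjusted p, called Gohir.D04G191100 in GhTM-1 fiber against epidermis (0.79) and in Gb3-79 against GhTM-1 epidermis at 2 DPA (-0.83) and dropped Gohir.1Z049716 in Gb3-79 against GhTM-1 epidermis at 0 DPA (-0.57). A mean over 1 FPKM also called Gohir.D04G191100 in Gb3-79 against GhTM-1 epidermis at 2 DPA (-0.83). For the calls lost with a pseudocount of 0.1 the log2 differences hardly moved, and the SE shared by all groups rose. The libraries near or below these pseudocounts were those of GhMD17 at 0 DPA, at or under 1.30 FPKM for both genes. The share of each group in the rise of the SE, and the cause of the other changes, was not tested. With 1 library left out, a lone library is assumed to vary like the other groups, and 172 of 180 values kept their side of the threshold. The 180 include values not called at the outset and reruns of both permutation tests of the ratio. Of these tests, the one of fiber against epidermal cells could not pass by design. The other 8 were those of Gohir.1Z049716 in GhTM-1 fiber against epidermis (0.76 to 0.78) and in Gb3-79 against GhTM-1 epidermis at 0 DPA (-0.72 to -0.42) and 2 DPA (-0.83 to -0.63).

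The labels do not say that a replicate number marks shared ovules, although fibers and the epidermal cells under them were cut in succession, so same-numbered libraries of 2 DPA may share material. Over 28 pairs of groups the correlation of same-numbered deviations ran from -0.10 to 0.14, and 3 were over 0.1. Between fiber and epidermal libraries of 2 DPA it was 0.05 in Gb3-79 and 0.10 in GhTM-1, so pairing was not taken as shown. With the replicate block, Gohir.D04G191100 was called in Gb3-79 against GhTM-1 epidermis at 2 DPA (-0.83, adjusted p = 0.0450, limma), and no other call moved. The reads behind values near 0 are unknown.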

Other observations

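Of 1648 orthologs over 50 FPKM on average in both Gb3-79 and GhTM-1 epidermal cells at 0 DPA, 11 averaged under 1 FPKM in GhMD17 at 0 DPA, and 7 of these 11 averaged over 5 FPKM in GhMD17 at 2 DPA. Both GhMYB25 genes and Gohir.D11G043200 were in each of these sets. The limits were chosen after the values were seen, and no test was run.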
